A study of Mus musculus with 16 samples.

Results

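The 10 genes described here are markers by which lymphocytes can be read in RNA of whole mouse liver. They were named one by one and not by a rule on their values, but with earlier results of these data known. 8 mark T cells and natural killer (NK) cells (Cd3e, Cd3d, Cd3g, Cd8a, Cd4, Il2rb, Nkg7 and Gzma) and 2 mark B cells and plasma cells (Cd79b and Jchain). All 10 were found among the 17410 genes of the deposited tables. The study asked what ChREBPα, the longer isoform of the carbohydrate-responsive transcription factor encoded by Mlxipl, does in diet-induced fatty liver disease. RNA of 16 livers was sequenced, 4 in each of 4 groups.

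In LKO_NASH livers (numbered 21 to 24) and WT_NASH livers (17 to 20), all mice carried Chrebpα-flox/flox alleles and ate a NASH diet for 12 weeks, in which fat gave 40% and fructose 20% of calories and 2% cholesterol was added. LKO_NASH mice received AAV-TBG-Cre and WT_NASH mice AAV-TBG-GFP. TBG is a hepatocyte promoter, so Cre was directed to hepatocytes and lymphocytes were not its target. In Ad_Chrebpa_HFLMCD livers (13 to 16) and Ad_GFP_HFLMCD livers (9 to 12), wildtype mice received adenovirus overexpressing Chrebpα or GFP. They ate HFLMCD, a choline-free diet in which fat gave 45% of calories and 0.1% methionine was added, which began at 2 months of age. The labels give 3 weeks of this diet and 1 week from virus to dissection, and do not make clear whether the 3 weeks include that week. The labels give no age for the mice on the NASH diet. They number the livers without saying that each is a separate animal, so the p-values here speak of the spread over these 16 samples, and that spread may be technical.

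The CD3 chains form the signalling part of the T cell receptor. CD8 and CD4 are the co-receptors that divide T cells into those that read MHC class I and those that read MHC class II. The liver is rich in NK cells, cytotoxic T cells and innate-like T cells, and these carry granules with granzymes. In fatty liver disease CD8 T cells are known to accumulate, and plasma cells that make joined IgA have been described.

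The libraries held 21569511 to 32110154 expected counts in LKO_NASH, 21254937 to 40327264 in WT_NASH, 29640300 to 33996245 in Ad_Chrebpa_HFLMCD and 32131999 to 36163207 in Ad_GFP_HFLMCD. Albumin (Alb) was among the most abundant transcripts in every group, with a mean of 34267, 38284, 26940 and 27976 FPKM in the same order of groups. Mlxipl, the targeted gene, averaged 76.4 ± 22.3 FPKM in LKO_NASH and 66.1 ± 15.1 in WT_NASH, and 46.1 ± 1.41 in Ad_Chrebpa_HFLMCD and 43.7 ± 4.61 in Ad_GFP_HFLMCD (SD, n = 4 each). Mlxipl did not follow the labels: the groups overlapped in both experiments, it was not lower in LKO_NASH, and it had 138.1 to 149.6 normalised CPM in Ad_Chrebpa_HFLMCD against 115.5 to 146.5 in Ad_GFP_HFLMCD. These whole-gene values do not separate the isoforms, and whether vector transcripts were counted as Mlxipl is not known. The groups are called by their labels throughout, and neither the deletion nor the overexpression was seen in these values. Liver 21 weighed heavily in the deletion experiment, where edgeR called 0 of 12786 genes with all 8 livers (1737 at an unadjusted p below 0.05), limma on FPKM 0 and DESeq2 158, but edgeR called 420 without liver 21.

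Levels between genes were compared in FPKM, the fragments per kilobase of transcript that the authors scaled to each library. Jchain had the highest mean of the 10 in LKO_NASH (4.68 ± 1.76 FPKM), WT_NASH (2.74 ± 0.22) and Ad_Chrebpa_HFLMCD (12.6 ± 4.79). In Ad_GFP_HFLMCD Nkg7 (3.41 ± 1.85), Jchain (3.10 ± 0.44) and Gzma (2.83 ± 0.68) stood at the top, and their means differed by less than their SDs. Cd3d had the lowest mean in all 4 groups, at 0.195 ± 0.061 FPKM in LKO_NASH, 0.083 ± 0.044 in WT_NASH, 0.635 ± 0.193 in Ad_Chrebpa_HFLMCD and 0.563 ± 0.253 in Ad_GFP_HFLMCD. In LKO_NASH the neighbours in the order from Nkg7 (0.753 ± 0.198) down to Cd4 (0.345 ± 0.059) differed by less than the larger of their SDs. The same held in WT_NASH from Nkg7 (0.455 ± 0.065) down to Cd3d, except between Cd79b (0.443 ± 0.156) and Il2rb (0.283 ± 0.139), where the gap was slightly wider than the SD. All 8 T and NK markers were above 0 in all 16 livers. Their expected counts summed to 113 to 234 per liver in LKO_NASH and 74.1 to 168 in WT_NASH, and to 392 to 1074 in Ad_Chrebpa_HFLMCD and 469 to 882 in Ad_GFP_HFLMCD. The counts behind single genes in the NASH livers were therefore small.

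Values below are normalised CPM, expected counts scaled to library size and to the composition of the 16 libraries (edgeR's TMM). In bulk RNA, fewer cells of a type and less RNA per cell cannot be told apart.

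**Figure D1:**
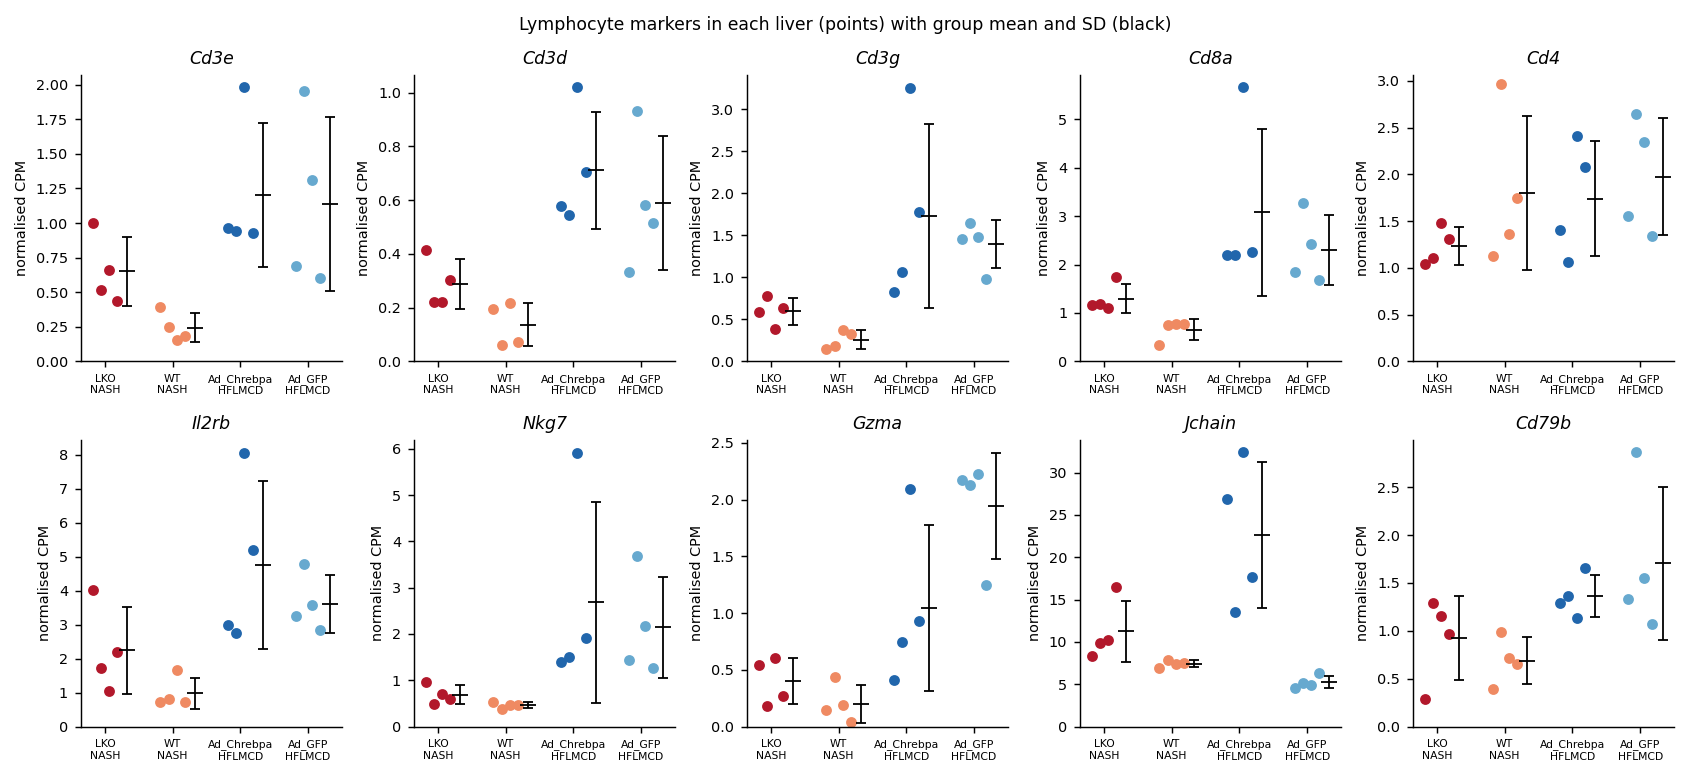
Normalised CPM (vertical axes, each with its own scale from 0) of the 10 markers in each liver of the 4 groups, with the group mean and SD in black beside the 4 points. The T and NK markers other than Cd4 sit lowest in WT_NASH, and Jchain reaches 13.6 to 32.5 CPM in Ad_Chrebpa_HFLMCD against 4.60 to 6.30 in Ad_GFP_HFLMCD.

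The first comparison asks whether Cre aimed at hepatocyte Chrebpα on the NASH diet changes the lymphocyte markers. No marker passed the test, and point estimates were above 0 for 7 of the 8 T and NK markers without a filter on low counts, all but Cd4. Cd3e and Il2rb had the largest estimates among tested members, at a log2 fold change of 1.45 and 1.17. The 3 CD3 chains and Cd8a did not overlap between groups. Jchain did not overlap either, and Cd79b did.

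The CD3 chains are needed for the T cell receptor to reach the cell surface. Cd3e had 0.998, 0.514, 0.657 and 0.435 CPM in the LKO_NASH livers, against 0.392, 0.247, 0.155 and 0.182 in the WT_NASH livers. Cd3d had 0.416, 0.220, 0.219 and 0.301 CPM in LKO_NASH, against 0.196, 0.0618, 0.217 and 0.0726 in WT_NASH. Cd3g had 0.582, 0.771, 0.383 and 0.636 CPM in LKO_NASH, against 0.147, 0.186, 0.371 and 0.327 in WT_NASH. The lowest LKO_NASH liver lay above the highest WT_NASH liver for all 3 chains, but by a thin margin for Cd3d (0.219 against 0.217) and Cd3g (0.383 against 0.371). The log2 fold change of Cd3e was 1.45 (SE 0.41, 95% CI 0.52 to 2.39, edgeR adjusted p = 0.310), from 12 to 24 counts in LKO_NASH livers and 4 to 8 in WT_NASH livers. Cd3d and Cd3g did not pass the filter on low counts, and without it gave 1.01 (adjusted p = 0.458) and 1.14 (adjusted p = 0.387).

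Cd8a encodes the CD8 alpha chain of cytotoxic T cells, which some dendritic cells also carry. It had 1.16, 1.17, 1.10 and 1.74 CPM in the LKO_NASH livers, against 0.343, 0.742, 0.774 and 0.763 in the WT_NASH livers. All 4 LKO_NASH livers were above all 4 WT_NASH livers, and the log2 fold change was 0.98 (SE 0.30, CI 0.29 to 1.66, adjusted p = 0.337). Cd4, the co-receptor of helper and regulatory T cells, had 1.04, 1.10, 1.48 and 1.31 CPM in LKO_NASH, against 1.13, 2.97, 1.36 and 1.74 in WT_NASH. The groups overlapped, with an estimate of -0.52 (SE 0.32, CI -1.25 to 0.20, adjusted p = 0.460).

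The ratio of Cd4 to Cd8a within a liver does not depend on the scaling between libraries. In FPKM it was 0.903, 0.939, 1.38 and 0.765 in LKO_NASH livers 21 to 24, against 3.38, 3.79, 1.75 and 2.30 in WT_NASH livers 17 to 20. The 2 groups did not overlap. Cd8a had 7 to 25 expected counts in the WT_NASH livers and 20.0 to 51.9 in the LKO_NASH livers, so the ratios rest on few counts. It was 0.650, 0.494, 0.428 and 0.940 in Ad_Chrebpa_HFLMCD livers 13 to 16, against 0.859, 0.821, 0.979 and 0.803 in Ad_GFP_HFLMCD livers 9 to 12, which overlap. This ratio was chosen after its values were seen and was not tested. How often other pairs of genes separate the groups in this way was not examined. Mean Cd4 in WT_NASH (0.45 FPKM) was above that of Cd3e (0.13), Cd3d (0.083) and Cd3g (0.205). How much of the Cd4 came from T cells was not tested.

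Il2rb is the shared beta chain of the IL-2 and IL-15 receptors, on which NK cells and memory CD8 T cells depend. It had 4.03, 1.73, 1.04 and 2.21 CPM in LKO_NASH, against 0.735, 0.804, 1.67 and 0.726 in WT_NASH, and its log2 fold change was 1.17 (SE 0.45, CI 0.17 to 2.18, adjusted p = 0.356). Nkg7, a granule membrane protein of cytotoxic cells, had 0.957, 0.477, 0.712 and 0.603 CPM in LKO_NASH, against 0.539, 0.371, 0.464 and 0.472 in WT_NASH, with an estimate of 0.56 (SE 0.29, adjusted p = 0.417). The groups overlapped in both genes, through WT_NASH liver 19 in Il2rb and liver 17 in Nkg7. Gzma, granzyme A, rested on 5 to 13 counts in LKO_NASH and 1 to 7 in WT_NASH, did not pass the filter, and gave 1.04 without it (adjusted p = 0.512). Gzma overlaps Cdc20b in the RefSeq gene table, and the sources used here do not say whether counting used strand, so its reads are uncertain throughout.

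Cd79b is the beta chain of the B cell receptor's signalling pair. It had 0.291, 1.28, 1.15 and 0.971 CPM in LKO_NASH, against 0.392, 0.989, 0.712 and 0.654 in WT_NASH (log2 fold change 0.45, SE 0.45, adjusted p = 0.622). Jchain encodes the joining chain of IgA and IgM polymers, made by plasma cells. It had 8.36, 9.91, 10.2 and 16.5 CPM in LKO_NASH, against 6.91, 7.92, 7.36 and 7.48 in WT_NASH. The groups did not overlap, but liver 24 stood well above the other 3 LKO_NASH livers, and the estimate of 0.61 did not pass (SE 0.20, CI 0.15 to 1.07, adjusted p = 0.343).

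Counted together, 4 of the 8 T and NK markers and 1 of the 2 B and plasma cell markers did not overlap and were higher in LKO_NASH. Over all 12786 tested genes 2.81% were non-overlapping and higher and 3.25% were non-overlapping and lower. Cd3d and Cd3g did not pass the filter on low counts and are not among those genes, so these shares are not on a like set. Of the 5 T and NK markers that passed the filter, only Cd3e and Cd8a did not overlap. Without livers 19 and 21, 5 of the 8 did not overlap, when the shares over all tested genes were 18.1% and 20.5%, so the count then says less. The summed CPM of the 8 was 6.17 to 9.73 in LKO_NASH and 3.62 to 5.81 in WT_NASH. No tested member passed in any of 16 alternatives, with adjusted p from 0.0584 upwards.

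The wider lists of lymphocyte genes gave 0 calls as well, as did all genes. Of 22 T cell genes 11 were tested, with a median log2 fold change of 0.54 and 9 above 0, beside a median of 0.01 and 51.5% above 0 over all tested genes. Zap70, the kinase that binds the phosphorylated CD3 chains, was at 0.08 and Tcf7, a transcription factor of naive T cells, at -0.33 (adjusted p = 0.885 and 0.416). The IL-7 receptor gene Il7r was at 0.54 (edgeR adjusted p = 0.581). Of 17 NK and cytotoxic genes 3 were tested and all 3 were above 0, among them the chemokine Ccl5 at 1.46 (adjusted p = 0.305). Of 16 lymphocyte cytokines and receptors 12 were tested and 11 were above 0, with the T cell attracting chemokines Cxcl9 at 1.77 and Cxcl10 at 1.65 (adjusted p = 0.310 and 0.305). All 5 tested B cell genes were above 0, with Cd22 at 0.49 and Cd79a at 0.34, and of 5 tested plasma cell genes Sdc1 was at -0.22, Derl3 at 0.28 and Mzb1 at 0.15 (adjusted p from 0.357 to 0.893). DESeq2 called Ccl5 (adjusted p = 0.00987), Cxcl9 (0.0275) and Cxcl10 (0.0138), but no marker. In edgeR, Cxcl10 was also called in the fit of all 16 libraries (adjusted p = 0.0362) and without livers 19 and 21 (0.0373).

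Lists of other leukocytes were mixed. All 8 pan-leukocyte genes had estimates above 0, with a median of 0.76 and Ptprc, the CD45 phosphatase of all leukocytes, at 0.78 (adjusted p = 0.343). The median over 12 genes of macrophages and Kupffer cells was 0.76, with all 12 above 0, and their summed CPM ran from 176 to 455 in LKO_NASH and from 142 to 296 in WT_NASH. Of 4 tested neutrophil markers, S100a8 was at -0.79 and S100a9 at -0.52, and Csf3r at 0.51 and Cxcr2 at 0.31. The 10 hepatocyte markers had a median of -0.39. None passed, and the part of these lists in the marker values was not tested.

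The second comparison asks whether the Chrebpα adenovirus on the HFLMCD diet changes the markers. Jchain rose about 4-fold in Ad_Chrebpa_HFLMCD livers, and none of the 8 T and NK markers passed the test or separated the groups. Cd79b did not pass. Among 13658 tested genes 4.95% were called higher and 3.18% lower, while 9.94% were non-overlapping and higher and 6.76% non-overlapping and lower.

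Jchain had 26.8, 13.6, 32.5 and 17.7 CPM in Ad_Chrebpa_HFLMCD livers 13 to 16, against 4.60, 5.16, 4.94 and 6.30 in Ad_GFP_HFLMCD livers 9 to 12. Every Ad_Chrebpa_HFLMCD liver had more than any other liver of the study except LKO_NASH liver 24, which lay above liver 14. The fold change was 4.26, or 2.09 on the log2 scale (SE 0.25, CI 1.53 to 2.66, edgeR adjusted p = 0.00217), from 548 to 1147 expected counts in Ad_Chrebpa_HFLMCD and 180 to 282 in Ad_GFP_HFLMCD. It passed in all 15 alternatives, between 1.67 and 2.27. Cd79b had 1.29, 1.36, 1.13 and 1.66 CPM in Ad_Chrebpa_HFLMCD, against 1.33, 2.87, 1.55 and 1.07 in Ad_GFP_HFLMCD, with an estimate of -0.34 (SE 0.30, CI -1.0 to 0.33, adjusted p = 0.511) that was 0.036 without Ad_GFP_HFLMCD liver 10.

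The window from 250 bases before to 50 after the annotated start of Jchain is shown because Jchain was the marker that rose in the Ad_Chrebpa_HFLMCD livers. It is chr5:88527848-88528147 on the minus strand of GRCm38.p6, from RefSeq, and capitals mark each match to CANNTG, the E-box core read by basic helix-loop-helix factors, the family of ChREBP.
Jchain: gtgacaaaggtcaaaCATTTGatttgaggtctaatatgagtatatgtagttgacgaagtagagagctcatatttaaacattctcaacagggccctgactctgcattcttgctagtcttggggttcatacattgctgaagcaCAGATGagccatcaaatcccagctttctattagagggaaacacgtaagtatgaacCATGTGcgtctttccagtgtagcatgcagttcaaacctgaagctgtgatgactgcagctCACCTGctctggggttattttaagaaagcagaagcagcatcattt
The window held 4 matches to CANNTG, a motif found on either strand in 72.3% of 32851 mouse promoter windows of the same length, and 0 matches to CACGTG, found in 7.15%. CACGTG is itself one form of CANNTG. No match says only that these letters are not in this window. Binding of ChREBP or any other factor to the marked matches was not tested.

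Of the other plasma cell genes 1 rose. Mzb1, a chaperone of antibody secretion, had 0.989, 0.371, 0.963 and 0.731 CPM in Ad_Chrebpa_HFLMCD, against 0.358, 0.215, 0.266 and 0.380 in Ad_GFP_HFLMCD. Only liver 14 reached into the Ad_GFP_HFLMCD range, and the log2 fold change of 1.29 passed narrowly (adjusted p = 0.0497). That call was lost when any 1 liver other than liver 14 was left out (adjusted p up to 0.126). It was the single call among the 6 tested of 11 plasma cell genes, whose median was -0.07 beside -0.01 over all genes. The others were split, with Pou2af1 at 0.61 (edgeR adjusted p = 0.162), Irf4 at 0.01, Derl3 at -0.17 and Prdm1 at -0.20. Sdc1, which hepatocytes also express, averaged 65.7 FPKM over the 16 livers and was at -0.15. The immunoglobulin genes Ighm, Igkc, Igha and Ighg2c were not found under these symbols in the deposited data and could not be analysed. The same held for Trac, Trbc1, Trbc2 and Trdc of the T cell list. Of 12 B cell genes 10 were tested and 0 passed, with Cd79a at 0.45 (adjusted p = 0.288) and Cd22 at 0.14 (adjusted p = 0.661).

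All 8 T and NK markers overlapped between the viruses, and single livers stood high within each group. Cd3e had 0.961, 0.940, 1.98 and 0.928 CPM in Ad_Chrebpa_HFLMCD livers 13 to 16, against 0.690, 1.96, 1.31 and 0.603 in Ad_GFP_HFLMCD livers 9 to 12. Nkg7 had 1.40, 1.51, 5.92 and 1.91 CPM in Ad_Chrebpa_HFLMCD, against 1.43, 3.68, 2.18 and 1.27 in Ad_GFP_HFLMCD. Liver 15 was the highest of its group for all 8 markers, and liver 10 the highest of its group for 7 of 8. Their summed CPM was 30.4 in liver 15 and 10.8 to 15.8 in the other 3 Ad_Chrebpa_HFLMCD livers, and 21.1 in liver 10 and 10.5 to 16.1 in the other 3 Ad_GFP_HFLMCD livers. Ptprc was highest in the same 2 livers, with 54.8 CPM in liver 15 and 60.5 in liver 10.

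**Figure D2:**
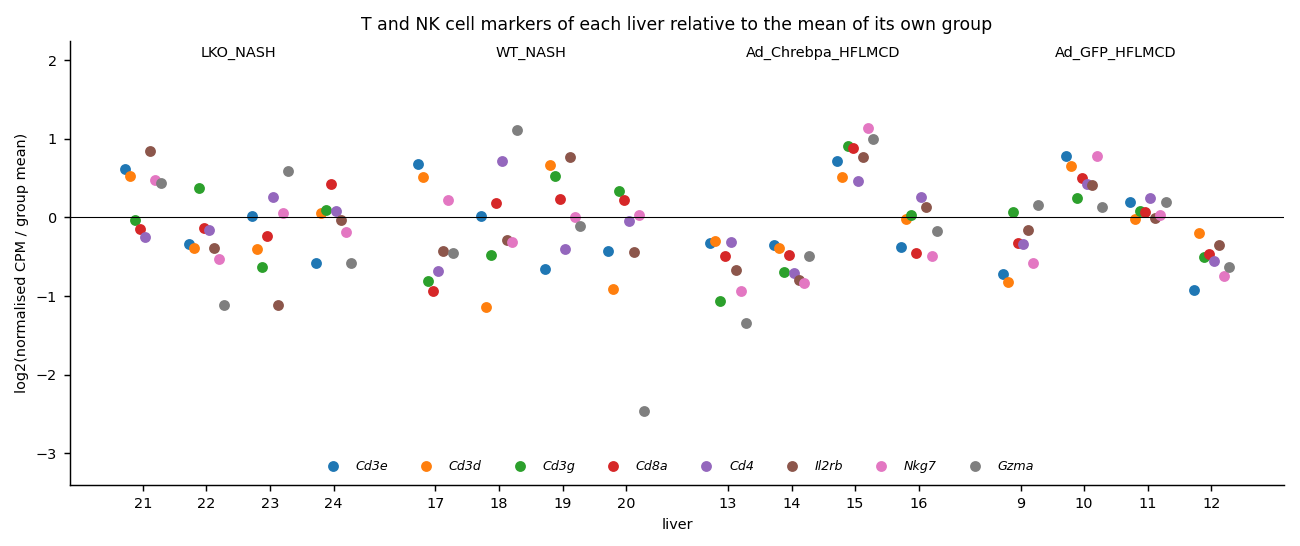
Log2 ratio of each T and NK marker in each liver (horizontal axis, livers by group) to the mean of its own group (vertical axis, 0 is the mean), 1 colour per gene. All 8 points of liver 15 and all 8 of liver 10 lie above 0, and liver 12 is the lowest of its group for 7 of 8, while the points of the NASH livers scatter on both sides.

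Cd3d had 0.577, 0.544, 1.02 and 0.703 CPM in Ad_Chrebpa_HFLMCD, against 0.332, 0.931, 0.581 and 0.513 in Ad_GFP_HFLMCD. Cd3g had 0.824, 1.06, 3.26 and 1.77 CPM in Ad_Chrebpa_HFLMCD, against 1.46, 1.65, 1.48 and 0.982 in Ad_GFP_HFLMCD. Cd8a had 2.20, 2.20, 5.66 and 2.25 CPM in Ad_Chrebpa_HFLMCD, against 1.84, 3.27, 2.42 and 1.67 in Ad_GFP_HFLMCD. In all 3 genes liver 15 was the highest of the 8 livers and liver 10 the next for Cd3d and Cd8a. Cd4 had 1.40, 1.06, 2.41 and 2.08 CPM in Ad_Chrebpa_HFLMCD, against 1.56, 2.65, 2.35 and 1.34 in Ad_GFP_HFLMCD. Il2rb had 2.99, 2.75, 8.07 and 5.20 CPM in Ad_Chrebpa_HFLMCD, against 3.25, 4.80, 3.58 and 2.84 in Ad_GFP_HFLMCD. These also overlapped, livers 15 and 16 being the highest 2 for Il2rb.

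The log2 fold changes were 0.06 for Cd3e (CI -0.85 to 0.97), 0.25 for Cd3d (-0.50 to 0.99), 0.30 for Cd3g (-0.57 to 1.16), 0.40 for Cd8a (-0.37 to 1.18), -0.20 for Cd4 (-0.87 to 0.47), 0.38 for Il2rb (-0.35 to 1.10) and 0.31 for Nkg7 (-0.81 to 1.43). Adjusted p values ran from 0.499 to 0.940. The upper bounds, from 0.47 for Cd4 to 1.43 for Nkg7, give the largest increases that remain within the intervals. Without liver 15 the estimates of Cd3e, Cd3g, Cd8a and Nkg7 changed sign, to -0.28, -0.20, -0.062 and -0.42.

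Gzma had the lowest estimate. It had 0.412, 0.742, 2.10 and 0.928 CPM in Ad_Chrebpa_HFLMCD, against 2.17, 2.13, 2.23 and 1.25 in Ad_GFP_HFLMCD. Livers 15 and 12 made the groups overlap. The log2 fold change was -0.91 (SE 0.41, CI -1.83 to 0.01, adjusted p = 0.191), and without liver 15 it was -1.49 and passed (adjusted p = 0.0350).

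Among 22 T cell genes 17 were tested, 16 were above 0 with a median of 0.45, and 2 rose. Zap70 had 4.53, 4.55, 4.70 and 4.67 CPM in Ad_Chrebpa_HFLMCD, against 2.35, 2.08, 2.54 and 1.76 in Ad_GFP_HFLMCD. The groups did not overlap, liver 15 was level with the others, and the log2 fold change of 1.07 (adjusted p = 0.00276) passed in all 15 alternatives. The CD3 chains, in contrast, were highest of their group in liver 15, and the cells that Zap70 came from were not tested. Il7r, the IL-7 receptor chain of naive and memory T cells, had 8.46, 12.0, 15.4 and 11.8 CPM in Ad_Chrebpa_HFLMCD, against 5.75, 8.88, 7.39 and 7.34 in Ad_GFP_HFLMCD, and its call at 0.68 (adjusted p = 0.0459) was lost in 6 of 8 single omissions (adjusted p up to 0.108).

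No NK or cytotoxic gene passed among 13 tested of 17, with a median of -0.04, nor any of 15 tested of 16 cytokines and receptors, with a median of 0.15. Ccl5 was at 0.16, Cxcl9 at 0.83 and Cxcl10 at -0.01 (adjusted p = 0.845, 0.293 and 0.979). Of the pan-leukocyte genes 0 of 8 passed and Ptprc was at -0.07 (adjusted p = 0.818). In the dendritic cell list 1 of 9 passed: Siglech, a marker of plasmacytoid dendritic cells, had 2.09, 1.48, 2.89 and 3.68 CPM in Ad_Chrebpa_HFLMCD, against 0.869, 1.10, 1.38 and 1.12 in Ad_GFP_HFLMCD (1.16, adjusted p = 0.0346). Siglech passed in 1 of 8 single omissions. In the macrophage list 1 of 12 passed, Itgax at 0.40 (adjusted p = 0.0454).

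**Figure D3:**
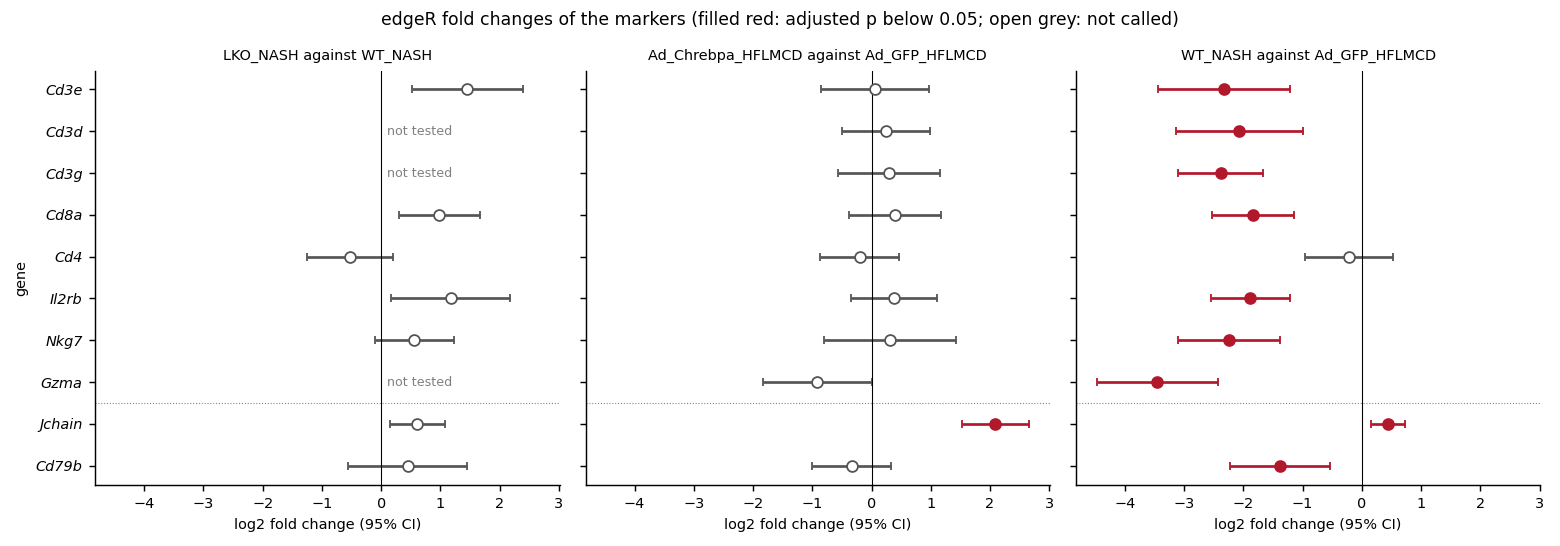
Log2 fold change with 95% confidence interval from edgeR (horizontal axis) of each marker (vertical axis, T and NK above the dotted line) in 3 comparisons, filled red where the adjusted p was below 0.05. Jchain is the only filled marker in the middle panel, and 7 of 8 T and NK markers are filled below 0 in the right panel.

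The control livers of the 2 experiments were set side by side to place the levels. 7 of the 8 T and NK markers and Cd79b were lower in WT_NASH than in Ad_GFP_HFLMCD livers, by 3.6- to 11-fold for the T and NK markers. Cd4 did not pass and Jchain was slightly higher. Cd3d, Cd3g and Gzma had not passed the filter on low counts between the NASH groups. They could pass it here through the Ad_GFP_HFLMCD livers alone, and their direction was then largely fixed. The largest fold, of Gzma, rests on 1 to 7 counts in the WT_NASH livers. Diet, its length, virus, genotype and experiment all differ between these groups and cannot be told apart. 28.2% of 13488 tested genes were called higher and 30.9% lower, so a call in either direction was common. The comparison uses the same control livers as those above and is not independent of them.

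Gzma differed most, at 0.200 ± 0.167 CPM in WT_NASH and 1.94 ± 0.46 in Ad_GFP_HFLMCD (SD, n = 4 each). Its log2 fold change was -3.45 (SE 0.46, edgeR adjusted p = 0.000136). The CD3 chains were at -2.33 for Cd3e (SE 0.50, adjusted p = 0.00258), -2.07 for Cd3d (SE 0.48, adjusted p = 0.00427) and -2.38 for Cd3g (SE 0.32, adjusted p = 0.000152). Cd3e averaged 0.244 ± 0.106 CPM in WT_NASH and 1.14 ± 0.63 in Ad_GFP_HFLMCD. Nkg7 was at -2.25 (adjusted p = 0.000709), Il2rb at -1.88 (0.000467) and Cd8a at -1.84 (0.000662). None of these 7 overlapped between the groups, where 27.2% of tested genes were non-overlapping and lower and 29.2% higher, and the 7 passed in all 16 alternatives, also without the filter on low counts.

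Cd4 stood apart from the other T cell markers. It averaged 1.80 ± 0.82 CPM in WT_NASH and 1.97 ± 0.63 in Ad_GFP_HFLMCD, with a log2 fold change of -0.22 (SE 0.33, CI -0.96 to 0.53, adjusted p = 0.602). Cd4 was called only in limma on FPKM, where the median of all genes was also lower, by 0.60 on log2(FPKM + 0.1). Cd79b averaged 0.687 ± 0.245 CPM in WT_NASH and 1.70 ± 0.80 in Ad_GFP_HFLMCD (-1.38, SE 0.38, adjusted p = 0.0103). Jchain averaged 7.42 ± 0.41 CPM in WT_NASH and 5.25 ± 0.74 in Ad_GFP_HFLMCD (0.44, SE 0.13, adjusted p = 0.0136), and was at -0.17 on log2(FPKM + 0.1), so its direction depends on the scaling between experiments.

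**Figure D4:**
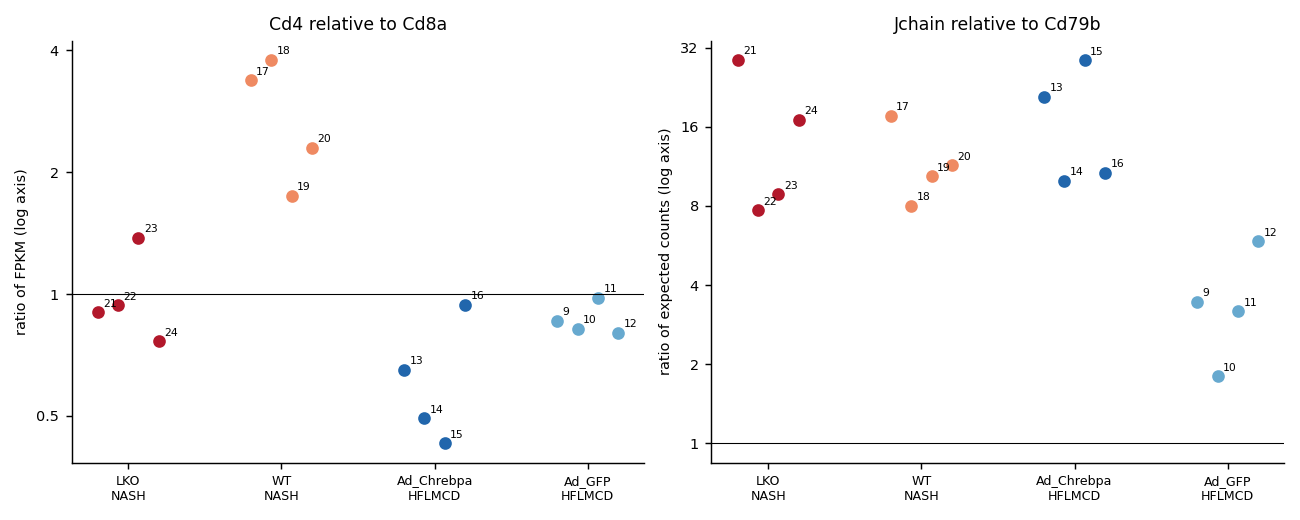
Ratio of Cd4 to Cd8a FPKM (left) and of Jchain to Cd79b expected counts (right) in each numbered liver of the 4 groups, on log axes. Cd4 exceeds Cd8a in all 4 WT_NASH livers, at 1.75 to 3.79, and the Jchain ratio is lowest in Ad_GFP_HFLMCD, at 1.80 to 5.88.

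The ratio of Jchain to Cd79b counts, which is free of that scaling, was 28.7, 7.71, 8.86 and 17.0 in LKO_NASH livers and 17.6, 8.0, 10.3 and 11.4 in WT_NASH livers. It was 20.8, 9.96, 28.7 and 10.7 in Ad_Chrebpa_HFLMCD livers and 3.46, 1.80, 3.19 and 5.88 in Ad_GFP_HFLMCD livers. All 12 livers of the other 3 groups were above all 4 Ad_GFP_HFLMCD livers. The ratio was chosen after its values were seen and was not tested.

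The CD3 genes neighbour each other on 1 chromosome and encode chains of 1 complex, and all 3 were lower in WT_NASH than in Ad_GFP_HFLMCD, so their start windows are shown, from RefSeq on GRCm38.p6. They are chr9:45009562-45009861 on the minus strand for Cd3e, chr9:44981536-44981835 on the plus strand for Cd3d and chr9:44980382-44980681 on the minus strand for Cd3g. Capitals mark TGNGGT, the core read by RUNX factors, on either strand (ACCNCA when read on the other).
Cd3e: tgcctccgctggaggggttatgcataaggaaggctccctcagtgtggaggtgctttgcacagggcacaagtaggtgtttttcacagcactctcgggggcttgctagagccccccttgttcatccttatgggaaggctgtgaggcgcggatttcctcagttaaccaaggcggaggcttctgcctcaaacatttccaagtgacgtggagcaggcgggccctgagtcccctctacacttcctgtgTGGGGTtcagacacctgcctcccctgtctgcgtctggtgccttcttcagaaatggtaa
Cd3d: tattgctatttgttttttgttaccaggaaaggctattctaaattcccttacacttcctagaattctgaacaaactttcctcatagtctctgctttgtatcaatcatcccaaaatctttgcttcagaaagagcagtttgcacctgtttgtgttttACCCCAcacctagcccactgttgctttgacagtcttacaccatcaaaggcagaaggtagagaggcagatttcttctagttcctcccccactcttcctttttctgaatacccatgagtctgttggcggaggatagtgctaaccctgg
Cd3g: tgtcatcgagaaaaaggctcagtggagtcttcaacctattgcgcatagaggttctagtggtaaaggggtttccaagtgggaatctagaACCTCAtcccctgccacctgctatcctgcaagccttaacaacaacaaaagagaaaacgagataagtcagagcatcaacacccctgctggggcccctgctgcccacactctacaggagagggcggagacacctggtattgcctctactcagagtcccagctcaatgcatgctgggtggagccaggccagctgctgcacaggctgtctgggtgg
Each window held 1 match, and 45.8% of the 32851 windows held at least 1. Entries were found for 7 of the 10 markers.

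Other lymphocyte genes are given as a description. A gene that is low in WT_NASH could pass the filter through the Ad_GFP_HFLMCD livers alone, and its direction was then largely fixed, so the counts below support nothing. Of 15 tested T cell genes 12 fell and 1 rose. Il7r (-3.78, adjusted p = 6.8e-06) and Lck, the kinase bound to CD4 and CD8 (-1.97, adjusted p = 0.000517), were among those that fell. Zap70 was the 1 that rose, with 5.19, 7.98, 8.42 and 5.70 CPM in WT_NASH, above all Ad_GFP_HFLMCD livers (1.59, adjusted p = 0.000106). In its mean FPKM too Zap70 was higher, at 3.92 ± 0.94 in WT_NASH and 1.81 ± 0.32 in Ad_GFP_HFLMCD. The CD3 chains were far lower in WT_NASH, with means of 0.13 FPKM for Cd3e, 0.083 for Cd3d and 0.205 for Cd3g. Zap70 thus did not follow the CD3 chains, and how much of it came from T cells was not tested.

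Of 17 NK and cytotoxic genes 10 were tested, where 3 were tested between the NASH groups, and the 10 were lower in WT_NASH, among them Ccl5 (-2.69) and the NK receptors Klrd1 (-2.87) and Ncr1 (-3.23). Of 8 tested B cell genes 4 fell and 0 rose, with the B cell inhibitory receptor Cd22 at -1.64, the adaptor Bank1 at -1.84 and the transcription factor Spib at -1.49. The plasma cell list was split, with Prdm1, a transcription factor of plasma cells and effector T cells, at -2.48, and Derl3 at 1.58 and Sdc1 at 0.40. Sdc1 turned to -0.23 on log2(FPKM + 0.1). Of 15 tested cytokines and receptors 12 fell and 2 rose, with the IL-21 receptor Il21r at -2.18 and the chemokine Cxcl16 at -1.82. Genes too low in both groups were not tested.

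Other leukocytes moved the same way. All 8 pan-leukocyte genes fell, with a median of -2.72, Ptprc at -2.73 and Cd48 at -3.10, and their summed CPM ran from 50.5 to 88.5 in WT_NASH and from 354 to 497 in Ad_GFP_HFLMCD. Of 12 macrophage and Kupffer cell markers 10 fell and 1 rose, with a summed CPM of 142 to 296 in WT_NASH and 1119 to 1644 in Ad_GFP_HFLMCD. All 10 hepatocyte and all 6 erythroid markers were called higher in WT_NASH. These list counts rest on TMM-scaled counts, and they were not repeated on FPKM, where the median of all genes was at -0.60. The part of these shifts in the lymphocyte values was not tested.

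**Figure D5:**
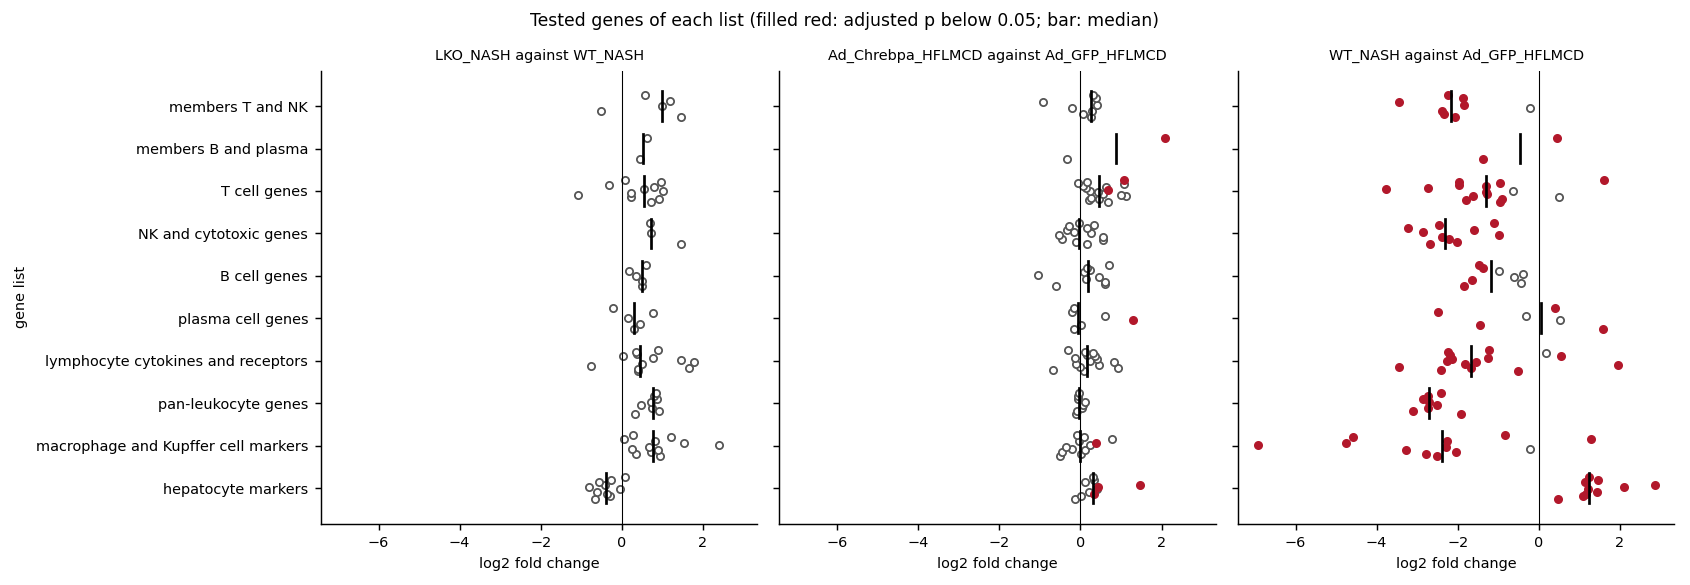
Log2 fold change (horizontal axis) of each tested gene of 10 lists (vertical axis) in 3 comparisons, with called genes in red and the list median as a bar. In the right panel the leukocyte lists lie mainly below 0 and the hepatocyte markers above it, and in the left panel no gene is red.

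The 2 experiments share no liver, so the difference between their contrasts could be tested in 1 fit of 16 livers, where 0.976% of 13830 genes were called higher and 1.62% lower. Jchain differed by -1.50 on the log2 scale (SE 0.35, CI -2.24 to -0.76, edgeR adjusted p = 0.0357), since it stood at 0.61 in LKO_NASH against WT_NASH and at 2.09 in Ad_Chrebpa_HFLMCD against Ad_GFP_HFLMCD. Both estimates were above 0, and the call was lost in 12 of the 16 single omissions, with adjusted p up to 0.0795. None of the 8 T and NK markers passed, with estimates from -0.34 for Cd4 to 1.96 for Gzma and adjusted p from 0.179 to 0.883. The unadjusted intervals of Gzma (0.23 to 3.69) and Cd3e (0.0012 to 2.75) lay above 0, and those of the other T and NK markers included 0. Gzma, Cd3d and Cd3g had not passed the filter between the NASH groups. They could pass it here through the HFLMCD livers, and their estimates rest on few counts in the NASH livers. Zap70, at 0.08 and 1.07 in the 2 contrasts, differed by -1.01 and did not pass (adjusted p = 0.0594).

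Genes outside the markers were ranked by how closely they followed the markers over the 16 livers, as the mean absolute difference between centred log2(FPKM + 0.1) profiles, among 13820 genes. Among the 5 nearest to the mean of the 8 T and NK markers were Lck (0.170), Mndal (0.174), Trim30a (0.197) and Samhd1 (0.204). Nearest to the mean of Cd79b and Jchain were Ndrg1 (0.219), Tiam1 (0.220), Steap3 (0.223), Mxra8 (0.245) and Ngfr (0.246). Jchain and Cd79b had estimates of opposite sign between the viruses (2.09 and -0.34) and between the controls (0.44 and -1.38). Their mean is therefore the profile of neither gene, and nearness to it says little of B or plasma cells. The T and NK mean itself deviated by 0.892 on average and the mean of the other 2 by 0.580, and FPKM carries the shift of all genes between experiments.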

How the data were processed

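Expected counts (estimated reads per gene, not normalised) and FPKM were used as deposited by the authors, with 1 table per liver. HISAT2 aligned the reads per the submitters' processing notes, while the sources used here name no counting program, build, annotation or strand setting. Transcript-named entries (26 of 17436) were summed into their genes. Genes listed for some livers only were taken as 0 in the others, the lowest FPKM listed being 0.01. Expected counts, of which 25.3% to 27.2% were not whole, were rounded for edgeR 4.0.16 under R 4.3.3 (TMM, filterByExpr, two-sided quasi-likelihood F test, Benjamini-Hochberg adjustment over all genes tested, called below 0.05), each comparison in its own 8 libraries and the difference of contrasts in 16. The test was also tested on simulated data. The markers and the 14 other lists were chosen with earlier results of these data known. Named list genes were the 3 with the lowest adjusted p among called members, or else the 3 with the highest mean FPKM, and the 5 genes nearest in pattern. Ptprc and the ratios were added after their values were seen, and some lists are given by counts or not described. Cxcr2 between the NASH groups, and Pou2af1, Irf4, Derl3, Prdm1 and Sdc1 between the viruses, are named outside this rule. Some genes that the rule names are not reported here. Alternatives were DESeq2 1.42.0 and its size factors, 2 other filters, limma 3.58.1 on log2(FPKM + 0.1) and log2(FPKM + 1), a fit of all 16 libraries, and omission of each liver. Livers 19 and 21 were also left out together, because earlier results of these data had set them apart. Their omission from the count of non-overlapping markers was chosen after seeing the data. Promoter windows came from a RefSeq table of GRCm38.p6. Plots were drawn with matplotlib 3.10.9, and tables made with NumPy 2.4.6, pandas 2.3.3 and Python 3.11.15.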

Additional observations from a re-analysis of the deposited data

Results flagged for a closer look

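Within groups of 4 livers, a liver far from the other 3 was found in 7 of 40 sets of marker values. Chance gives about 1 in 20 for independent sets with a normal spread. The sets here share livers and some rest on few counts, so an excess over chance cannot be read from this. In Ad_Chrebpa_HFLMCD, liver 15 was far above the others for Cd3e (1.98 CPM), Cd8a (5.66) and Nkg7 (5.92). In LKO_NASH, liver 24 was far above for Cd8a (1.74 CPM). In WT_NASH, liver 17 was far below for Cd8a (0.343 CPM) and liver 19 far above for Il2rb (1.67). In Ad_GFP_HFLMCD, liver 12 was far below for Gzma (1.25 CPM). Jchain was singled out because its log2 fold changes in the 2 experiments differed by -1.50 in the test of that difference.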

How the results depend on the processing

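In LKO_NASH against WT_NASH, the 112 values of tested markers kept their direction and their side of the threshold. In Ad_Chrebpa_HFLMCD against Ad_GFP_HFLMCD 142 of 150 did, in WT_NASH against Ad_GFP_HFLMCD 155 of 160 and in the difference of contrasts 216 of 230. With 1 liver left out of Ad_Chrebpa_HFLMCD against Ad_GFP_HFLMCD, the sign changed for Cd3e (-0.28 to 0.45; negative without liver 9 at -0.12, 12 at -0.15 or 15), Cd3g (-0.20 to 0.52), Cd8a (-0.062 to 0.62) and Nkg7 (-0.42 to 0.70), all 3 without liver 15, Cd79b (-0.50 to 0.036, without liver 10) and Ptprc (-0.19 to 0.095, without liver 10 or, at 0.027, 13). In WT_NASH against Ad_GFP_HFLMCD it changed on log2(FPKM + 0.1) and log2(FPKM + 1) for Jchain (-0.17, -0.13) and Sdc1 (-0.23, -0.22), and in the difference for Cd4 on log2(FPKM + 1) (0.012) and Nkg7 without liver 10 (-0.17, in a range up to 0.96). The call of Jchain in WT_NASH against Ad_GFP_HFLMCD ended in the fit of 16 libraries (adjusted p = 0.0983). That of Derl3 ended on FPKM (0.143).

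Counts of called genes moved more. LKO_NASH against WT_NASH had 0, with 158 in DESeq2, 152 in the fit of 16 libraries, 1525 without livers 19 and 21, and 0 to 420 with 1 liver left out. Ad_Chrebpa_HFLMCD against Ad_GFP_HFLMCD had 1110, with 1941 in DESeq2, 336 in the fit of 16 and 400 to 1722 with 1 liver left out. The difference had 359, with 981 in DESeq2, 978 on log2(FPKM + 0.1), 1031 on log2(FPKM + 1), 2595 without livers 19 and 21 and 120 to 1683 with 1 liver left out. The cause was not tested. WT_NASH against Ad_GFP_HFLMCD moved by less than 1.5 times.

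The share of calls that were higher was 60.9% on counts and 30.1% on log2(FPKM + 0.1) in Ad_Chrebpa_HFLMCD against Ad_GFP_HFLMCD, 47.7% and 6.98% in WT_NASH against Ad_GFP_HFLMCD, and 37.6% and 89.6% in the difference. The median of all genes on log2(FPKM + 0.1) was -0.60 in WT_NASH against Ad_GFP_HFLMCD, 0.15 in LKO_NASH against WT_NASH and 0.23 in the difference. With a pseudocount of 1, 1 of the 5 nearest genes of the T and NK markers and 2 of the 5 of Cd79b and Jchain stayed among the nearest 5. No paired analysis was possible because the groups share no replicate numbers. Low counts, such as 1.01 to 7.16 for Cd3d and 4 to 8 for Cd3e in WT_NASH livers, limit what the NASH comparison could detect.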
